A study of Homo sapiens with 2 samples.

Results

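The RNA helicase MTR4 was examined at a stretch of chromosome 3 (band 3q26) that holds FNDC3B, the coding gene with most listed peaks on that chromosome, and its neighbours PLD1, NCEH1 and ECT2. RNA bound to MTR4 was pulled down and sequenced (RIP-seq) in PLC/PRF5 cells, an established hepatocellular carcinoma line, in which MTR4 with an HA tag was overexpressed from a plasmid. The nuclei were lysed by sonication, and RNA was captured with an antibody against HA or with IgG. There were 2 libraries, 1 per antibody, both from cells overexpressing MTR4, so every value describes 1 list and has no replicate. Tagged, overexpressed MTR4 was captured here, not the endogenous protein. The IgG library is titled as input, and the peak list names no library. It was read as the list of the anti-HA library. The list gives no read count, so the depth behind a peak is unknown. The 4 genes were chosen by their counts of peaks in an earlier reading of the same list, so those counts are a description. A peak was a member if it shared at least 1 base with one of the 4 gene spans, which held for 71 of 3304 listed peaks, or 5.56% of the 1277 on chromosome 3. The 4 spans make up 0.366% of that chromosome. Of the 3304 listed peaks, 3292 lay on chromosomes 3, 7, 10, 15, 20 and 22. The list is therefore not an even map of the genome, and the reason was not examined.

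MTR4 unwinds RNA and passes it to the nuclear exosome, which digests it from the 3′ end. In human cells it works with adaptor proteins that bring it to short-lived nuclear transcripts, among them products of transcription that ends early inside introns. Introns are normally cut out and degraded in the nucleus, so RNA from them is found there and rarely in the cytoplasm. FNDC3B encodes a membrane protein of the endoplasmic reticulum with fibronectin type III domains. PLD1 encodes phospholipase D1, which makes phosphatidic acid from phosphatidylcholine. NCEH1 encodes a neutral cholesterol ester hydrolase, and ECT2 encodes an exchange factor that activates RhoA when a dividing cell pinches apart.

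All coordinates are on hg19 (GRCh37), counted from 1. FNDC3B (ENSG00000075420, 171757368 to 172119459, + strand, 362.1 kb) held 54 peaks. NCEH1 (ENSG00000144959, 172348039 to 172429008, − strand, 80.97 kb) held 8, ECT2 (ENSG00000114346, 172468472 to 172539264, + strand, 70.79 kb) held 7 and PLD1 (ENSG00000075651, 171318194 to 171528740, − strand, 210.5 kb) held 2. At least 1 peak was listed in 49.1% of the 1083 protein-coding genes of chromosome 3, and at least 7 in 2.49% of them, and nothing is read from the members' counts against these shares because the counts chose the members. The only peak that straddled an end of a gene span was the first of ECT2, with 170 of its 400 bases before the gene. Widening each span by 5000 bases added no peak.

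The sequences below show what the peaks looked like where they met an exon or the start of a gene. They are stretches of at most 300 bases from the reference genome, written 5′ to 3′ on the strand of the gene. Peaks 5108 and 5112 (chr3:172028502-172028801 and chr3:172052653-172052952) were the FNDC3B peaks that touched an exon of the canonical transcript, and peak 5059 (chr3:171455402-171455701) was the one in PLD1. Capitals mark exon bases.
FNDC3B peak 5108: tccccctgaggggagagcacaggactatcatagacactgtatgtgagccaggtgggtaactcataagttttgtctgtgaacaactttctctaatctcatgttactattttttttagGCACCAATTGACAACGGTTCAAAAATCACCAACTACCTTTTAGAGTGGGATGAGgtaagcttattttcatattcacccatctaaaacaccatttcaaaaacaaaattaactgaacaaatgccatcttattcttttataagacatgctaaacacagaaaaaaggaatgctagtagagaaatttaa
FNDC3B peak 5112: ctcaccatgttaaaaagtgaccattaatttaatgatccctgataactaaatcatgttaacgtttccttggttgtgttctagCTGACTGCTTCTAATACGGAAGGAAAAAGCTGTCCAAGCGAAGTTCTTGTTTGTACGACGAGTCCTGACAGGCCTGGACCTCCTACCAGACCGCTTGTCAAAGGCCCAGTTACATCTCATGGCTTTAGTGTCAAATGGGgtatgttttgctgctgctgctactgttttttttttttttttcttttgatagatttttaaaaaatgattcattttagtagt
PLD1 peak 5059: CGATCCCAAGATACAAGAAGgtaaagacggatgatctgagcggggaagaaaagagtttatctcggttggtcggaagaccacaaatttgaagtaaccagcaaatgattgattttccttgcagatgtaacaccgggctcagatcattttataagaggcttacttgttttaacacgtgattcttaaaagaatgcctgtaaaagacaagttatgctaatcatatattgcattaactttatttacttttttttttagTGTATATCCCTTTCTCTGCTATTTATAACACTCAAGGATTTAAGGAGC

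The last sequence is the part of ECT2 peak 5123 that lies before the annotated start of the gene (chr3:172468302-172468471), with no base in capitals.
ECT2 peak 5123: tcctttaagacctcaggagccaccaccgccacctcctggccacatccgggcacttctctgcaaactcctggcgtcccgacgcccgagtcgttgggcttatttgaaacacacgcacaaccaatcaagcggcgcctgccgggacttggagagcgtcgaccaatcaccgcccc

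Per 100 kb of gene, FNDC3B held 14.9 peaks, NCEH1 9.88, ECT2 9.89 and PLD1 0.95, and long stretches between the genes held none. From the first PLD1 peak to the last ECT2 peak, 0 listed peaks lay outside the 4 genes. A stretch of 242.1 kb without a peak separated PLD1 from FNDC3B, 309.6 kb separated FNDC3B from NCEH1 and 47.8 kb separated NCEH1 from ECT2. These stretches hold coding genes with 0 listed peaks: TMEM212 between PLD1 and FNDC3B, and GHSR, the ghrelin receptor gene, and TNFSF10, the gene of the death ligand TRAIL, between FNDC3B and NCEH1. Past ECT2, SPATA16, a gene used in sperm formation, also held 0 in 251.9 kb, and the next listed peak came 3668.3 kb after the last one of ECT2. Before PLD1, the nearest listed peak ended 139.2 kb from that gene. The peaks carry running numbers from 5059 to 5129, and 0 numbers in that range were missing. All 71 had the score 60, as did nearly all listed peaks, so the score does not grade them.

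**Figure D1:**
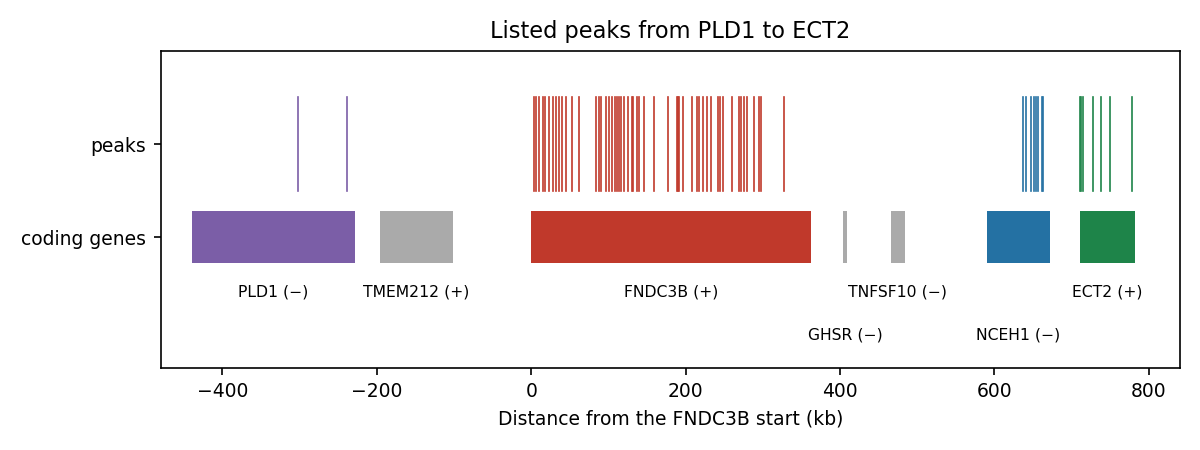
The map shows the distance from the FNDC3B start in kb, with the coding genes as bars (members in colour, others in grey, the strand in brackets, without AC007919.2, a gene of 0.258 kb inside NCEH1) and each listed peak as a vertical line. FNDC3B carries 54 lines and PLD1 carries 2, and no line stands between the genes.

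FNDC3B was next described intron by intron. Its canonical transcript (ENST00000415807) has 26 exons and 25 introns, and introns make up 97.8% of its length. Of the 54 peaks, 53 had their midpoint in an intron, which is 98.1% (Wilson 95% CI 90.2 to 99.7, counting error within this list only). They fell in 12 of the 25 introns. Intron 3, of 93.3 kb, held 16 peaks, and intron 1, of 72.7 kb, held 13. Intron 6 (34.4 kb) held 7, and introns 4 (20.6 kb) and 11 (18.1 kb) held 4 each. Intron 2 (20.9 kb) held 3, and introns 5, 7, 9, 10, 15 and 23 held 1 each. Longer introns thus held more peaks (Spearman's rho 0.76 over 25 introns of 1 transcript, given as a description).

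In the 6 introns over 10 kb of the front part of the gene, peaks per length ranged from 14.4 to 22.1 per 100 kb. The value was 17.9 in intron 1, 14.4 in intron 2, 17.1 in intron 3, 19.4 in intron 4, 20.4 in intron 6 and 22.1 in intron 11. Toward the 3′ end the peaks thinned out. Introns 1 to 11 held 51 peaks in 287.9 kb, or 17.7 per 100 kb, while introns 12 to 25 held 2 in 66.2 kb, or 3.02 per 100 kb. Intron 25 (16.1 kb) held 0, intron 23 (15.4 kb) held 1 and intron 11 (18.1 kb) held 4. The boundary after intron 11 was set after the counts had been seen, so the difference was not tested.

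**Figure D2:**
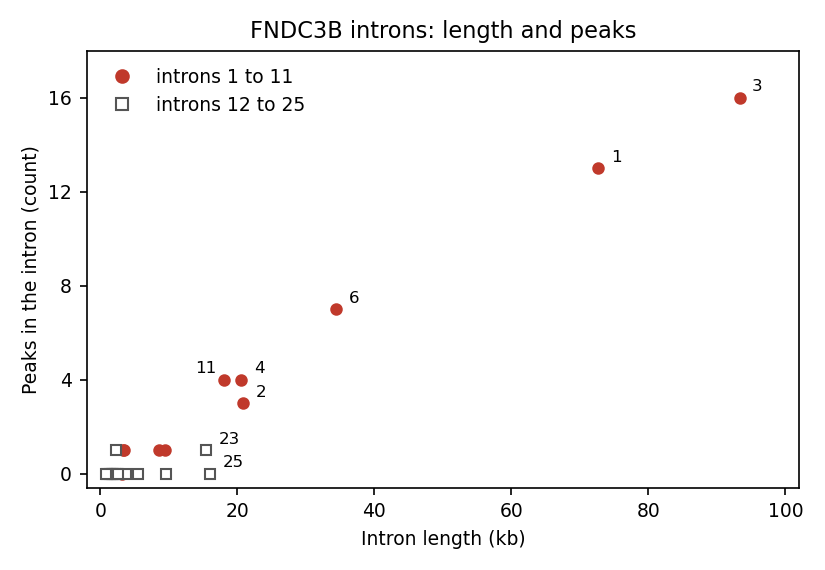
Each point is 1 of the 25 introns of FNDC3B, with its length in kb on the x axis and its number of peaks on the y axis, and the larger introns are labelled by number. Introns 1 and 3 hold 13 and 16 peaks, and the open squares of introns 12 to 25 stay at 0 or 1.

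Only a pair of FNDC3B peaks met an exon of the canonical transcript. Peak 5112 covered exon 15 whole, 139 bases, and its midpoint lay in that exon. Peak 5108 covered exon 11 whole, 54 bases, with its midpoint 29 bases into intron 11. Both exons stand in capitals in the sequences above, each between the ag that ends the intron before it and the gt that starts the next. Another peak, 5075 in intron 2, met an exon of 2 other transcripts of the 12 annotated for the gene. The remaining 51 peaks met no annotated exon of FNDC3B. The last exon, which is 4.51 kb long and holds the 3′ untranslated region, carried 0 peaks.

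Most FNDC3B peaks lay far from splice sites. The median distance from the edge of an intronic peak to the nearest canonical splice site was 10059 bases (quartiles 3740 and 23040, largest 45765, n = 53). Within 200 bases of a splice site lay 4 peaks: 5097, 135 bases into intron 5; 5113, 18 bases before exon 16; and both exonic peaks. Within 1000 bases lay 5 of the 53 intronic peaks, 9.43%, beside 13.2% of all intron bases of the gene. Peaks were measured from their edge and bases singly, so these shares are not like for like. Among the 562 intronic peaks of other coding genes on chromosome 3, the median distance was 705 bases (quartiles 0 and 7276) and 53.2% lay within 1000 bases. The intron lengths of those genes were not taken into account.

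Peaks of FNDC3B followed each other at a few kilobases. Over 53 neighbouring pairs the median distance between starts was 4500 bases (quartiles 3200 and 6400). The closest pair, 5094 and 5095 in intron 4, was 1400 bases apart. The farthest pair, 5113 and 5114, was 29700 bases apart and spans introns 15 to 23. Of the 53 distances, 45 were at most 10 kb. Linked at that distance, the peaks formed 5 runs and 4 single peaks. The run with most peaks held 17 (5074 to 5090) over 63.1 kb of introns 2 and 3, and the next held 13 (5061 to 5073) over 58.5 kb of intron 1. Runs of 9, 7 and 4 peaks followed.

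**Figure D3:**
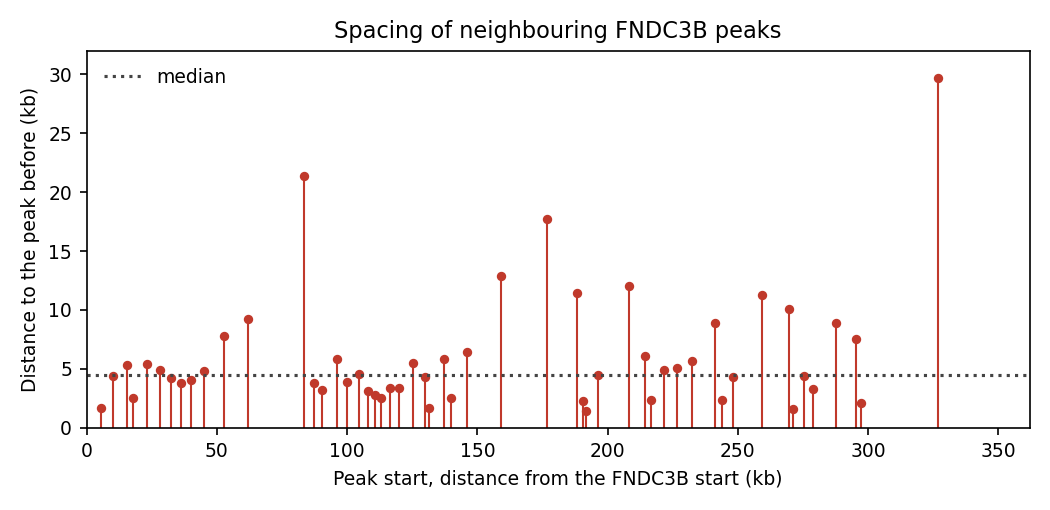
Each stem is 1 of the 53 neighbouring pairs in FNDC3B, placed at the start of the second peak (kb from the gene start), and its height is the distance to the peak before in kb. The dotted line is the median of 4.5 kb, and the stem of 29.7 kb stands before the last peak.

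Along the gene, FNDC3B peaks started early and stopped before the end. The first peak (5061, 171761302 to 171761701) began 3.93 kb after the gene start, and the last (5114, 172084402 to 172084801) ended 34.7 kb before the gene end. Cut into 4 equal parts from 5′ to 3′, the gene held 15, 17, 16 and 6 peaks. Before the middle of the gene lay 32 of them, 59.3% (Wilson 95% CI 46.0 to 71.3), and the median position was at 37.2% of the gene. The first 3 parts thus held like numbers, and the last held fewer.

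NCEH1 held its 8 peaks in 1 place. All of them lay in intron 1, which takes 62.7 kb of the 80.97 kb gene and 82.2% of its intron bases. Their midpoints lay 8335, 9635, 14835, 18035, 19835, 23535, 30535 and 34035 bases into that intron, in the order 5122 to 5115 along the gene. They occupied 13.3% to 54.3% of the intron, so the 28497 bases of intron 1 after peak 5115 and the other 3 introns held 0. The spacing ran from 1300 to 7000 bases with a median of 3500 bases, and the 8 peaks made 1 run of 26.1 kb. None of them met an exon of any of the 6 annotated transcripts. The density in intron 1 was 12.8 per 100 kb, below the 17.9 of FNDC3B intron 1.

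ECT2 differed in layout, with a cluster at its 5′ end and single peaks behind it. Peak 5123 (172468302 to 172468701) spanned the annotated start and covered exon 1 of the canonical transcript (ENST00000392692), 132 bases. Peak 5124 lay in intron 1, where 5 of the 16 annotated transcripts have an exon. Peak 5125 covered exon 2 whole, 152 bases, the exon in which the coding sequence begins. These 3 peaks lay within 4.2 kb. The other 4 were single peaks in introns 12, 14, 18 and 24, with 10200 to 28700 bases between starts. The last of them, 5129, lay at 95.2% of the gene, and 0 peaks met the last exon. Peak 5123 had a GC content of 58.3%, and its 170 bases before the gene, printed above, had 61.8%. The other 6 peaks ranged from 29.0% to 47.5%.

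PLD1 had the fewest peaks in a gene of 210.5 kb. Peak 5060 lay in intron 1 (72.3 kb), 9187 bases from its start. Peak 5059 lay across exon 2, the whole of intron 2 (232 bases) and exon 3, and 168 of its 400 bases were exonic. The sequence above shows this short intron whole, between the end of exon 2 and the start of exon 3. From exon 4 to the end of the gene, PLD1 held 0 peaks. Among 100 other coding genes of chromosome 3 within 1.5 times its length, 57 had a peak and 44 had at least 2, so the count in PLD1 lay among those of genes of its size.

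**Figure D4:**
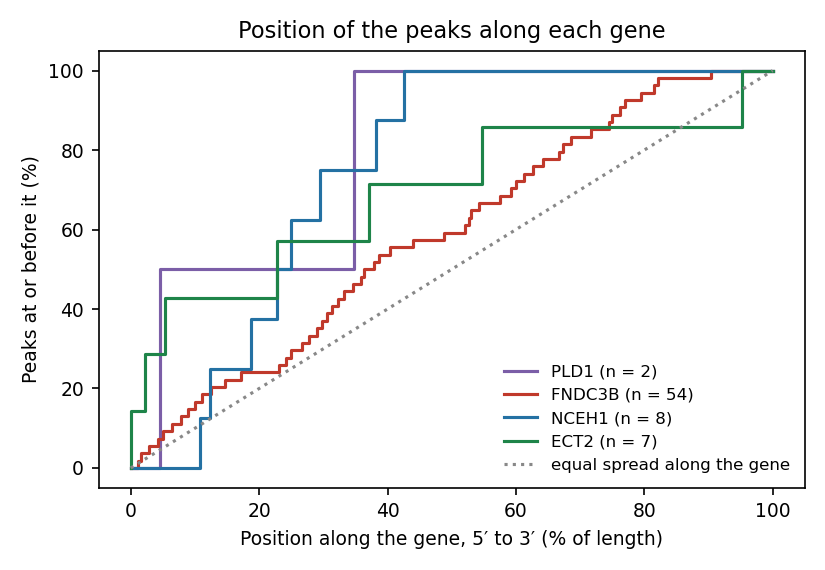
The x axis is the position along each gene from 5′ to 3′ in percent of its length, and each line gives the percent of that gene's peaks at or before it, with the dotted line for an equal spread. The NCEH1 line reaches its top at 42.5% of the gene, and the FNDC3B line rises in small steps, has its median peak at 37.2% of the gene and flattens toward the 3′ end.

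The counts were then set beside those of other coding genes on chromosome 3, as a description. FNDC3B had 14.9 peaks per 100 kb. Among the 127 coding genes over 200 kb the median was 0.185 and 61 held 0. The next density was 3.77, in MAP4 (9 peaks), followed by DLG1 (7 peaks, 2.73), MBNL1 (6 peaks, 2.70), NECTIN3 (5 peaks, 2.43) and ANKUB1 (5 peaks, 2.41). Some shorter coding genes of the chromosome had a higher density than FNDC3B. The 5 genes nearest to FNDC3B in length held few: MGLL 0, CMSS1 5, TMEM108 0, MRPS22 1 and PLCH1 1. Of 67 coding genes within 1.5 times its length, 33 had a peak and none had more than 7. Other coding genes with many peaks were ROBO1 (21), IGF2BP2 (15), MAGI1 (13) and LPP (12). NCEH1 and ECT2 both had 9.9 per 100 kb. Of 251 coding genes within 1.5 times the length of NCEH1, 3 had at least 8 peaks, and of 268 within 1.5 times that of ECT2, 5 had at least 7. The median was 1 peak in both sets.

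**Figure D5:**
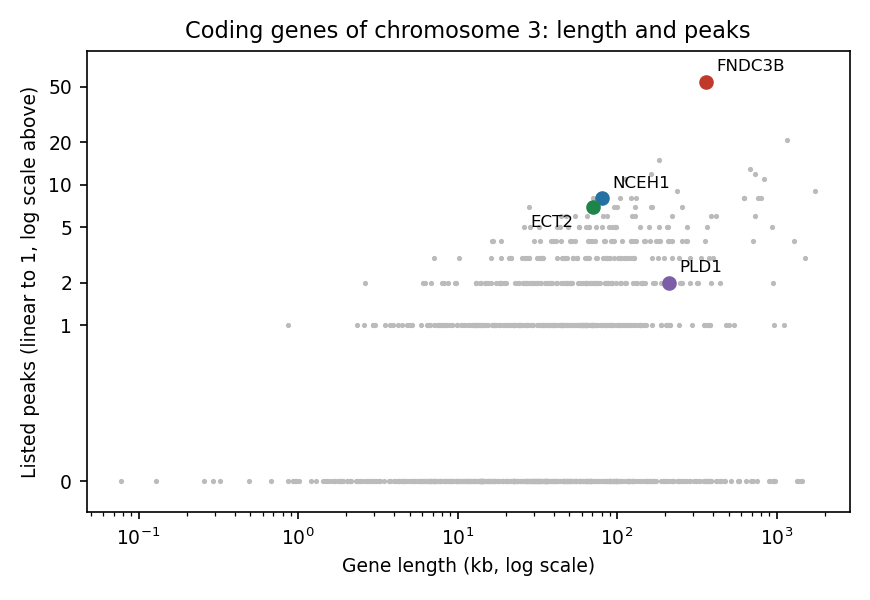
Each grey point is a coding gene of chromosome 3, with its length in kb on a log axis and its number of listed peaks on the y axis, which is linear up to 1 and logarithmic above. FNDC3B, at 54 peaks, stands above all grey points, of which ROBO1 has the most with 21, while PLD1 lies among genes of its length.

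Long introns and last exons were looked at after the data had been seen. Long introns in general carried few peaks. Of 1578 introns over 10 kb in other coding genes of the chromosome, 167 held a peak, 10.6%, at 0.416 per 100 kb. In genes with at least 1 peak the share was 19.3% and the density 0.785. In FNDC3B, 7 of 8 such introns held a peak, at 16.5 per 100 kb. FNDC3B was chosen by its count of peaks, and 48 of its 54 peaks lay in these introns. Nothing is therefore read from this contrast. In the other genes no intron over 10 kb held more than 13 peaks. As for exons, 50.2% of the 1120 peaks of other coding genes had their midpoint in an intron of the canonical transcript (Wilson 95% CI 47.3 to 53.1). A peak on the last exon was found in 172 of 528 other coding genes with a peak, 32.6%, and in 0 of the 4 genes described here. Among the 24 other genes with at least 7 peaks, the intronic share ranged from 0 to 100% with a median of 57.1%. MAGI1, LPP, ZBTB20 and CMTM8, named after their values were seen, had all their peak midpoints in introns, as NCEH1 did. CMTM8 had all 8 in intron 1.

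Finally, the letters under the peaks were compared with windows of 400 bases of the same gene. The mean GC content of the 54 FNDC3B peaks was 40.2% ± 5.96 (SD over peaks). It was 39.9% ± 5.74 in the 108 windows directly on both sides and 39.7% ± 6.43 in the 797 windows that tile the gene outside peaks. The mean of the peaks was 0.32 percentage points above the windows directly beside them and 1.73 above windows 1000 bases away. NCEH1 had 42.0% ± 4.48 in 8 peaks, 42.4% ± 5.55 in the 16 windows on both sides and 41.6% ± 6.08 in 186 windows outside peaks. ECT2 peaks had 41.9% ± 10.7 (n = 7), against 38.5% ± 8.80 in the 14 windows on both sides and 34.7% ± 6.26 in 163 windows outside peaks. The peak at the gene start was the highest of the 7 peaks, at 58.3%. The highest of the 14 windows on both sides had 60.5%.

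The motifs given for MTR4 in the study were a poly(A)-like one and the CCAG motif, which is CCAG, then C, T or G, then C. The poly(A)-like motif was present on the gene strand in 1 of 54 FNDC3B peaks (1.85%, Wilson 95% CI 0.328 to 9.77) and in 38 of 797 windows of the gene outside peaks (4.77%, CI 3.49 to 6.48). Sought on both strands, for the peaks alone, it was in 7.41% of FNDC3B peaks. It was found in 0 of the 17 peaks of the other genes and in 3.20% of 562 intronic peaks of other coding genes. The CCAG motif was present in 21 of 54 FNDC3B peaks (38.9%, CI 27.0 to 52.2), in 33 of 108 windows beside them (30.6%, CI 22.7 to 39.8) and in 32.5% of the windows outside peaks. It was present in 39.5% of the intronic peaks of other coding genes. For both motifs, the intervals of peaks and windows overlap. They cover counting error within 1 list only, and a difference was not tested. A run of 8 A was found in 11.1% of FNDC3B peaks and in 10.3% of the windows outside peaks. AATAAA, the usual signal for polyadenylation, was found in 22.2% and 29.0%, and GTAAGT, the letters of a strong 5′ splice site, in 9.26% and 8.03%. The last 3 patterns and the Alu marker were chosen after the data were seen. Each pattern was sought on the gene strand, and a match is a description of the letters.

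The letters after the CCAG motif were also read, because CCAGGC followed by TGG occurs in Alu elements, an abundant repeat, read in antisense. Of 33 CCAG matches in the 71 peaks, 7 were CCAGGC followed by TGG (21.2%). Only this form was sought, so the share does not cover every match that may lie in an Alu element. In FNDC3B alone it was 4 of 24 matches in peaks (16.7%), beside 67 of 350 outside peaks (19.1%). In intronic peaks of other coding genes it was 34 of 320 (10.6%). A marker of 12 bases of the Alu element was present in sense in 0 of 71 peaks and in antisense in 3 (4.23%). In the 54 FNDC3B peaks alone it was present in 0 in sense and in 2 in antisense (3.70%). In FNDC3B windows outside peaks the shares were 3.14% (25 of 797) in sense and 5.27% (42 of 797) in antisense. In intronic peaks of other coding genes they were 2.67% and 2.85%. A count of 0 allows a share of up to 4.23% if 3 counts of 71 are taken as the limit, and up to 5.13% by the Wilson 95% interval.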

How the data were processed

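Per the labels and the methods of the study, adapters were removed, reads were mapped to hg19 with TopHat2 2.0.13 and peaks were called with RIPSeeker. Settings, the use of the IgG library and filters after the call were not given in the sources used here. The deposited list holds the position, name, score and strand of each peak. The score, as the authors deposited it, was 60 at each peak described here and was not used further, nor was the strand, which was + throughout. Every peak was 400 bases wide, so the extent of a bound region is not known. The starts of the member peaks lay on a grid of 100 bases, so distances to exons, splice sites and other peaks depend on that grid.

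Peaks were compared with GENCODE release 44 mapped to GRCh37, the same build as hg19, using Python 3.11.15 and SciPy 1.17.1. An overlap of at least 1 base assigned a peak to a gene, and its midpoint set the exon or intron of the canonical transcript. For peaks of other genes, the longest coding gene at the midpoint was used. Windows of 400 bases that met no peak served for sequence comparison. Shares have Wilson 95% intervals, which cover counting error only. No test was run, since there was 1 library per antibody and peaks are not replicates. The members, gene lists and patterns were chosen with earlier results of these data known. Genes were named if they were members, lay between 171 and 173 Mb, were among the 5 with most peaks, the 5 of highest density over 200 kb or the 5 nearest to FNDC3B in length, or were on a fixed list. Peaks were named at the ends of a gene, in the closest and farthest pairs, at exons or splice sites, and others for their place in a run. A gene that this rule names and some peak sequences are not reported here. The counting steps were tested on simulated data.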

Additional observations from a re-analysis of the deposited data

How the results depend on the processing

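Of 30 alternatives computed, 24 left a count within 1.5 times, or a share within its interval, and 6 moved it. The counts of peaks per gene (FNDC3B 53 to 54, NCEH1 7 to 8, ECT2 7 and PLD1 2), the intronic peaks of FNDC3B (51 to 53), its density, its median spacing (4100 to 4500 bases) and its 5′ share stayed within these limits under each setting run. The runs of FNDC3B, 9 with single peaks included, became 23 when linked at 5000 bases and 3 at 20000 bases, so they describe the chosen distance. On both strands the CCAG motif was in 61.1% of FNDC3B peaks, and the windows were not searched on both strands. The other reading of this motif, CCA then C, T or G then C, was in 59.3% of FNDC3B peaks on the gene strand. That reading was in 64.7% of the windows outside peaks and in 68.3% of the intronic peaks of other coding genes. A run of 8 A in place of the poly(A)-like motif was in 11.1% of FNDC3B peaks, beside 10.3% of the windows outside peaks. The GC content of the peaks was 0.32 percentage points above the windows beside them and 1.73 above windows 1000 bases away, and the cause was not tested. This was counted as moved by a limit from a binomial interval over all bases of the peaks. That limit is narrow, because it treats neighbouring bases as independent. No replicate could be left out, with 1 library per antibody. No paired analysis was possible because the list has no value per library. Read depth, copy number and expression were not measured here, so peak counts cannot be related to them.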

Other observations

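Genes related to the members by family or function were looked up in the same list. Of 9 partners of ECT2 in cytokinesis, 5 lie on the 6 chromosomes with at least 10 peaks, and 2 of these had a peak. On those chromosomes a peak was listed in 1400 of 4362 coding genes (32.1%), with 47.8% on chromosome 15, 49.1% on 3, 31.9% on 10 and 4.07% on 7. KIF23, the kinesin of the centralspindlin complex that recruits ECT2 to the midzone, held 5 peaks (chromosome 15, 69706585 to 69740766), and PRC1, which bundles the microtubules of the midzone, also on chromosome 15, held 1. RHOA, the GTPase that ECT2 activates (chromosome 3), ANLN (chromosome 7) and CDK1 (chromosome 10) held 0. Of 10 paralogues of the members, only AADAC and AADACL2 lie on those chromosomes, and both held 0. Of 9 genes of cholesterol ester and lipid handling, only LIPA does, and it held 0.

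Other genes of 3q26 that are often gained in carcinomas held few peaks beside FNDC3B. Of 15 such genes, 9 had a peak, with 19 peaks in all and at most 4 in a gene. PHC3 held 4, MYNN, ACTL6A and TNIK held 3 each, DCUN1D1 held 2, and PRKCI, PIK3CA, TBL1XR1 and GPR160 held 1 each. MECOM, with 580.3 kb, held 0, as did TERC, SKIL, SOX2, ZMAT3 and SEC62. For comparison, at least 1 peak was listed in 49.1% of coding genes of chromosome 3.

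Of 9 hepatocyte genes on chromosome 3, CP held 2 peaks, TF held 1 and the other 7 (AHSG, FETUB, HRG, KNG1, ITIH1, ITIH3 and ITIH4) held 0. A list of positions without levels cannot tell whether the cells expressed them.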
